A study of Mus musculus with 16 samples.

Results

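The 40 genes described here encode the proteins that copy DNA and divide the cell, and were taken as a named list. They are 10 origin-licensing and helicase genes, 6 genes of DNA synthesis and nucleotide supply, 10 E2F factors, cyclins, cyclin-dependent kinases and their phosphatase, 6 mitotic kinase and spindle-checkpoint genes, and 8 genes of mitotic chromosomes, kinetochore and spindle. All 40 were found among the 21631 protein-coding or listed mouse genes considered on chromosomes 1 to 19 and X. Chromatin immunoprecipitation sequencing (ChIP-seq) had been carried out on cultured satellite cells (skeletal muscle stem cells) from the hindlimb of C57BL/6 mice kept in F10 medium with horse serum. One antibody was against H3K27ac, acetylated lysine 27 of histone H3, a mark of active promoters and enhancers. The other was against MyoD, the transcription factor that commits cells to muscle. Each antibody was used on 2 libraries labelled control and 2 labelled as knockdown of LncMyod, a long noncoding RNA. The treatment text of the labels gives 48 h of small interfering RNA to LncMyod for every sample, controls included, and what was given to the control cells is not stated.

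Genes of DNA replication and mitosis are transcribed in waves through the cell cycle. E2F factors bound to the retinoblastoma family keep the licensing and synthesis genes low until late G1. Cdc6 and Cdt1 load the Mcm2 to Mcm7 helicase onto origins, and cyclin-dependent kinases then fire them in S phase. Genes of G2 and mitosis carry cell cycle homology region (CHR) and CCAAT elements, which the MuvB complex with B-Myb or FoxM1 and the factor NF-Y use, and are repressed as cells withdraw from the cycle. Satellite cells rest in adult muscle, divide as myoblasts once activated or cultured, and leave the cycle for good when MyoD and its partners start differentiation.

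The data were 8 lists of peaks, 1 for each library, each peak with a fold enrichment given by the authors' peak caller. For H3K27ac there were 46259 and 53048 peaks in the controls against 54082 and 39964 in the knockdown, and for MyoD 17818 and 17649 against 16524 and 13146. Knockdown 2 had the fewest peaks of both antibodies, and its H3K27ac peaks had the highest median fold, 5.74 against 4.55 to 4.91 in the other 3 libraries. Read depth is unknown and RNA was not measured, so neither the depletion of LncMyod nor the expression of any gene below was checked. The 8 input samples were not analysed here. Whether the 2 replicates of a group are separate animals or cultures is not stated in the labels, and their spread, which all p-values here measure, may be technical. Of 12 marker genes of muscle stem cells and myoblasts, 11 carried an H3K27ac peak within 1 kb of their start in all 4 libraries. They included Pax7, Myf5, Myod1 and Cdh15, and the exception, Chrdl2, had none in any library. Of 8 immune markers 0 had such a peak in any library. In all 4 libraries it was present at 1 of 8 fibro-adipogenic markers (Gsn), 1 of 8 endothelial markers (Tek) and 3 of 8 smooth muscle and pericyte markers (Acta2, Notch3 and Tagln).

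The first question was whether the starts of these genes were acetylated in satellite cells. An H3K27ac peak lay within 1 kb of the annotated start in all 4 libraries at 38 of the 40 genes, or 95%. Over all genes considered this held for 44.2%. The 2 exceptions were the spindle-checkpoint genes Bub1 and Bub1b. For Mcm4, Gins2, Pole, Ccne2, Ccna2, Cdc25c and Aurkb the strand was not used, and a peak at either end of the gene was taken. The region at the start, made by merging the overlapping peaks of the 4 libraries, was 814 to 10128 bp wide with a median of 1694 bp. The narrowest was at Gins2, a subunit of the replicative helicase, and the widest at E2f2, followed by 9096 bp at Rrm2. Another gene start was counted within 1 kb at 6 of the genes. Where strand was not used, either gene end counted as a start. The pairs were Mcm4 with Prkdc, Mcm7 with Ap4m1, Cdc45 with Ufd1, Pole with Pxmp2, Ccna2 with Exosc9 and Aurka with Cstf1. The H3K27ac region of Ccna2 (chr3:36570439-36572987) lay nearer to Bbs7 than to Exosc9, so a peak shared with an Exosc9 start was not shown. At the other pairs the peak could not be given to one gene.

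The height of the mark differed widely among the genes. Each start was given the fold of its highest H3K27ac peak, and its percentile among the 9563 genes with a start peak in all 4 libraries, taken within each library. The median percentile over the 38 genes was 54.6 and 50.7 in the controls against 44.5 in both knockdown libraries, and was thus near the middle of all acetylated starts in each library. In fold, the medians were 10.1 and 9.50 against 10.2 and 7.84, beside 9.67 and 9.47 against 10.9 and 8.28 over all genes with a start peak. The plot of gene-start fold by library sets the 40 genes out by role. Rrm2, the regulated small subunit of ribonucleotide reductase, which makes deoxyribonucleotides, ranked highest with a mean percentile of 97.4. Its fold was 20.3 and 24.9 in the controls against 20.6 and 17.7 in the knockdown. The peak over the Rrm2 start was 8066 to 9047 bp wide, and its highest point lay at −338 bp from the start in control 1 but at −4694, −4686 and −5313 bp in control 2, knockdown 1 and knockdown 2. The fold of Rrm2 is thus mostly that of an upstream point. Cdt1, the licensing factor, followed with folds of 19.3 and 20.1 against 22.0 and 16.95 and a mean percentile of 96.4. Its values in the groups overlap. Zwint, a kinetochore protein, had 16.0 and 17.5 against 18.0 and 12.4. Birc5, or survivin, of the chromosomal passenger complex, had 16.9 and 14.1 against 16.0 and 16.2. Rrm1, the large subunit of ribonucleotide reductase, had 13.9 and 18.9 against 17.6 and 11.7. At Zwint, Birc5 and Rrm1 too the groups overlap, and their mean percentiles were 88.1, 87.3 and 85.2.

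**Figure D1:**
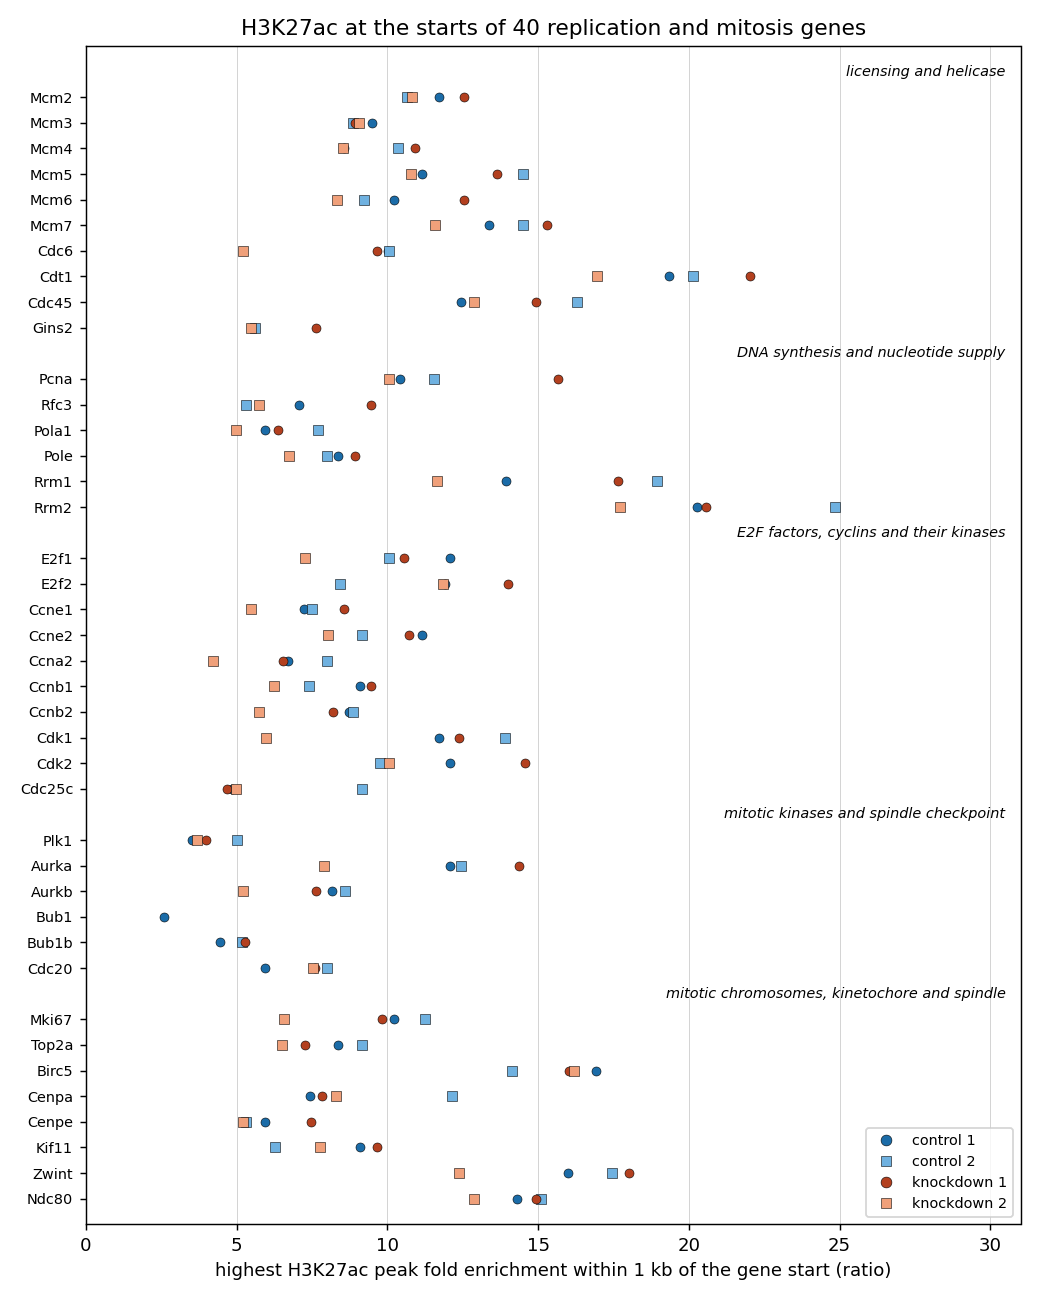
Highest H3K27ac peak fold enrichment (ratio, linear axis) within 1 kb of the start of each of the 40 genes, grouped by role, with 1 point for each library. Rrm2 and Cdt1 lie farthest to the right, Plk1 has the lowest points among genes acetylated in all 4 libraries, and Bub1 has 1 point only.

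At the other end of the range stood Plk1, the kinase that drives entry into mitosis and spindle assembly. Its start fold was 3.53 and 5.03 in the controls against 4.003 and 3.70 in the knockdown, and its mean percentile was 2.69. Cenpe, a kinetochore motor, had 5.95 and 5.33 against 7.46 and 5.23. Gins2 had 5.58 and 5.62 against 7.64 and 5.48. The controls and the knockdown overlap at both genes, whose mean percentiles were 15.4 and 16.4. Cdc25c, the phosphatase that activates Cdk1, had 4.83 and 9.17 against 4.69 and 4.97 and a mean percentile of 17.1. Pola1, the catalytic subunit of DNA polymerase alpha, had 5.95 and 7.69 against 6.37 and 4.97 and a mean percentile of 18.3. In Cdc25c and Pola1 the high value belonged to control 2. Bub1, a checkpoint kinase, had a start peak in control 1 alone, with a fold of 2.60. Bub1b, which encodes the checkpoint protein BubR1, had 4.46 and 5.20 in the controls against 5.28 in knockdown 1, and no peak in knockdown 2. No other start of the list lacked a peak in any library. The 6 mitotic kinase and checkpoint genes were the group with the lowest start acetylation: the median of mean percentiles over the 4 of them with a peak in every library was 28.8. It was 59.8 for licensing and helicase, 51.3 for DNA synthesis and nucleotide supply, 43.4 for the E2F, cyclin and kinase group and 45.6 for mitotic chromosomes, kinetochore and spindle. Over all acetylated starts it was 49.6.

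The letters of the promoters were set beside these values. The RefSeq promoter table of GRCm38.p6 (mm10) gave 35 windows for 33 of the genes, each from 250 bases before to 50 after an annotated start. Searched on both strands, an E2F motif (TTTCGCGC, TTTGGCGC, TTTCCCGC or TTTGCCGC) was found in 11 of the 35 windows, or 31.4%, and in 2.26% of all 32851 windows of the table. It was present in 6 of the 9 licensing and helicase windows, in 2 of 5 for DNA synthesis and in 3 of 8 for E2F factors, cyclins and kinases. None of the 13 windows of the mitotic groups (5 kinase and checkpoint, 8 chromosome and spindle) held one. A CHR motif (TTTGAA or TTCGAA) was found in 48.6% of the member windows against 19.2% of all, and in 5 of the 5 mitotic kinase and checkpoint windows. CCAAT was found in 82.9% against 37.4%. CHR and CCAAT stood in the same window in 45.7% against 7.52%. An E-box of the kind MyoD prefers (CAGCTG or CACCTG) was found in 6 of the 35 windows, or 17.1%, against 32.9% of all. Among the 105 matches in these windows, 1 pair of different motifs overlapped. The windows of the whole table belong to 27025 genes, with or without start acetylation. Shares among acetylated starts alone were not counted. A match is a description of the letters in the window.

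Of the 35 windows, 27 lay wholly under an H3K27ac region present in all 4 libraries. The licensing helicase genes Mcm5 and Mcm6 are shown as the E2F kind of promoter. Given are the 160 bases before the annotated start, 5′ to 3′ on the strand of the gene, in mm10 coordinates, with E2F and CCAAT matches of either strand in capitals.

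Mcm5 (chr8:75109349-75109508, plus strand): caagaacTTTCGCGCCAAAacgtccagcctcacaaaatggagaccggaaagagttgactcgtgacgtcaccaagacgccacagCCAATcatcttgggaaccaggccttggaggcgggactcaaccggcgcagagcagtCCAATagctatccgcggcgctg
Mcm6 (chr1:128359706-128359865, minus strand): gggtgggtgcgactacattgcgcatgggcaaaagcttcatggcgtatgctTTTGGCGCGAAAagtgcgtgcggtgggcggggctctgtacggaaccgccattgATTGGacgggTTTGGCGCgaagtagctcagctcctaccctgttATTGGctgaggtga

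At Mcm5 the start fold was 11.2 and 14.5 in the controls against 13.6 and 10.8 in the knockdown. At Mcm6 it was 10.2 and 9.24 against 12.6 and 8.34. In both genes the groups overlap. The starts of 4 genes of the later wave, Cdk1, Ccnb2, Mki67 and Top2a, are shown as the CHR and CCAAT kind. They were picked because all 4 ranked lower in both knockdown libraries, as described below. A CHR also stood in windows of Aurka, Cdc20, Cenpa, Mcm7, Rfc3, Mcm2, Plk1, Cdc45, Ndc80 and Kif11, which were neither lower nor higher. The higher start E2f2 had one too, and the lower starts Cdc6, Pola1, Rrm2 and E2f1 had none. Whether the motif goes with the ranks was not tested. As for Mcm5 and Mcm6, capitals mark CHR, CCAAT and, in Cdk1, an E2F match. In Ccnb2 the CHR matches of its window lie outside the stretch printed.

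Cdk1 (chr10:69352913-69353072, minus strand): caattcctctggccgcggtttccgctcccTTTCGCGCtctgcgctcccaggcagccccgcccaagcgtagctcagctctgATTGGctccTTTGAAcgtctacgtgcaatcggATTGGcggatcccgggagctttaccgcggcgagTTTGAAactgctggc
Ccnb2 (chr9:70421555-70421714, minus strand): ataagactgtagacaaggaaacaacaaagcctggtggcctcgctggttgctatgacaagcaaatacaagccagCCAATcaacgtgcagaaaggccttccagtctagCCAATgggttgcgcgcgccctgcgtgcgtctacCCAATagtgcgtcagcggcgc
Mki67 (chr7:135716380-135716539, minus strand): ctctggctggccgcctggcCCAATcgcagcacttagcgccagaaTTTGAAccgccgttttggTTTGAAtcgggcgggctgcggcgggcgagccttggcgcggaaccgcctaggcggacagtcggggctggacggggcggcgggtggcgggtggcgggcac
Top2a (chr11:99024190-99024349, minus strand): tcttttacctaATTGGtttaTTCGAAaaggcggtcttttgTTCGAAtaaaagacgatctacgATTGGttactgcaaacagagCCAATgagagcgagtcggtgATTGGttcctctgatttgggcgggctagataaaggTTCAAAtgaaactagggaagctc

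The position of the mark around the start was read from the 31 genes with a known strand and a start peak in all 4 libraries. The highest point of the peak lay downstream of the start in all 4 libraries at 14 genes, among them Mcm2, Mcm6, Cdk1, Top2a and Mki67. It lay upstream in all 4 at 10 genes, among them Cdc6, Birc5, Rrm2, Aurka and Mcm5, and on different sides at 7. Over all 7787 such genes 60.4% were downstream and 20.5% upstream in all 4 libraries. The start itself was covered by a peak at 80.6% and 87.1% of the 31 genes in the controls and at 93.5% and 45.2% in the knockdown. Over all genes these shares were 75.4%, 73.0%, 86.0% and 56.2%. Knockdown 2, the library with the fewest peaks, thus had the lowest cover and knockdown 1 the highest, among the 31 genes and among all genes.

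**Figure D2:**
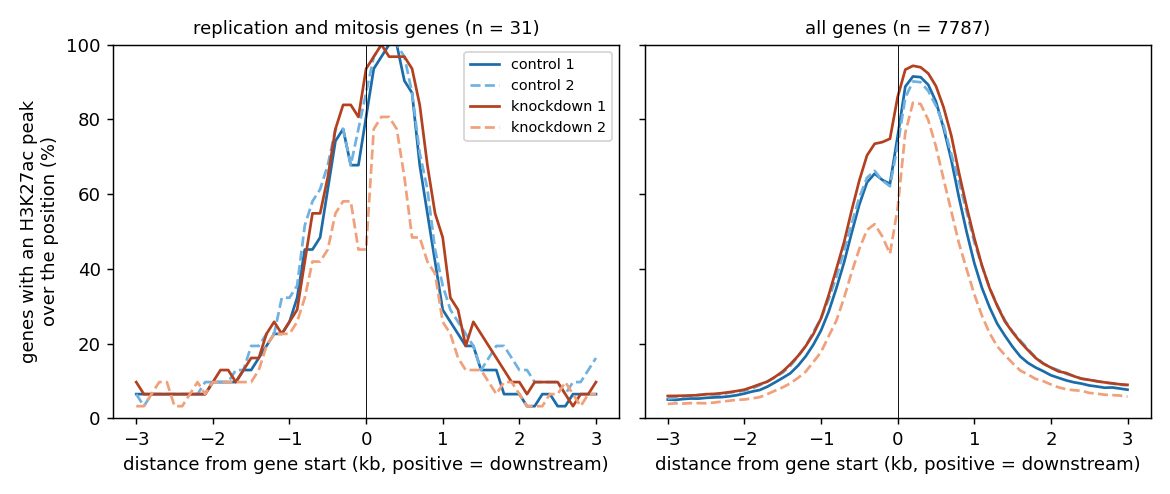
Percentage of genes with an H3K27ac peak over each position from 3 kb upstream to 3 kb downstream of the gene start, for the 31 replication and mitosis genes (left) and all 7787 genes with a known strand and a start peak in all 4 libraries (right), with 1 line for each library. At the start, the members were covered at 93.5% in knockdown 1 and 45.2% in knockdown 2, and the control lines lie between them.

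The second question was whether acetylation at these starts differed between knockdown and control. A start was counted as lower where both knockdown percentiles lay below both control percentiles, and as higher in the reverse case. Of the 38 starts, 11 were lower and 2 were higher. Over all 9563 starts, 15% were lower and 16% were higher. The 11 were Cdc6, Pola1, Pole, Rrm2, E2f1, Ccna2, Ccnb2, Cdk1, Aurkb, Mki67 and Top2a, and the 2 were Gins2 and E2f2. The median difference in percentile, knockdown minus control, was −3.34 over the 38 genes and 0.21 over all starts. The median percentile of the 38 genes was 52.6 ± 2.76 (SD, n = 2) in the controls and 44.5 ± 0.00555 in the knockdown. The difference of −8.18 had a two-sided exact permutation p of 0.33, the smallest that 2 libraries against 2 can give.

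No single start passed a test. The regions present in all 4 libraries were ranked by fold within each library and the normal scores of the ranks compared with limma. With Benjamini-Hochberg adjustment over 26113 H3K27ac regions, 0 passed an adjusted p of 0.05, and 1230 (4.71%) had an unadjusted p under 0.05. The replication and mitosis genes held 50 of these regions, with a lowest limma adjusted p of 0.994. Ranks belong to peak lists of different lengths, so a lower rank is a description of each list and not a measured loss of the mark. At 6 of the 11 starts both knockdown folds were below both control folds: Cdc6, Ccna2, Ccnb2, Aurkb, Mki67 and Top2a. The 11 were picked by ranks of these same folds, and the share over all starts was not counted. Over all acetylated starts the median fold was 9.67 and 9.47 in the controls against 10.9 and 8.28 in the knockdown, lowest in knockdown 2. Knockdown 2, with its fewer peaks, gave the lower of the 2 knockdown percentiles at 8 of the 11 genes, and its part in the count was not tested. Without knockdown 2, 16 starts of 39 lay below both controls and 9 above, beside 30.5% and 30.4% of all starts. Without control 1 the counts were 22 and 9 of 38, beside 34.6% and 35.6%, and without knockdown 1 they were 19 and 6, beside 31.6% and 34.2%. Without control 2 they were 14 and 7, beside 31.7% and 33.2%. All 11 were among the lower starts each time, which the definition makes likely.

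The group of E2F factors, cyclins and kinases held 4 of the 11 lower starts. Cdk1, the kinase of mitotic entry, had the largest difference. Its start region (chr10:69351076-69353419) had folds of 11.7 and 13.9 in the controls against 12.4 and 5.99 in the knockdown, and percentiles of 66.9 and 79.7 against 61.4 and 24.0. Knockdown 2 is the low value, while the fold of knockdown 1 lies between the controls. Ccna2, cyclin A2, which acts in S phase and G2, had percentiles of 22.4 and 36.4 against 13.2 and 4.22. Its start peak was not counted as lower when only peaks with a −log10 q of at least 5 were used or when the window was 250 bp. Ccnb2, cyclin B2, had folds of 8.74 and 8.88 against 8.19 and 5.74 and percentiles of 42.3 and 45.0 against 26.9 and 21.2. The controls of Ccnb2 lay close together, and both knockdown values were below them in fold as well as in rank. E2f1, the activating factor of the S-phase genes, had percentiles of 69.3 and 55.3 against 47.5 and 38.3. Its folds of 12.1 and 10.1 against 10.6 and 7.26 overlap.

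Ccnb1, Ccne1, Ccne2, Cdk2 and Cdc25c of the same group were neither lower nor higher at the start. Cyclin B1 (Ccnb1) had percentiles of 45.8 and 30.3 in the controls against 38.4 and 26.8 in the knockdown, and the groups overlap. Cyclin E1 (Ccne1) had 27.8 and 32.0 against 30.03 and 18.3. For Cdk2, the partner of cyclins E and A, the values were 69.3 and 52.7 against 75.1 and 65.3. The median percentile of the 10 genes of this group was 54.3 and 46.3 in the controls against 43.0 and 25.4 in the knockdown, lowest in knockdown 2. The median of their differences was −13.4 percentile points. It was 0.37 for licensing and helicase, −2.85 for DNA synthesis and nucleotide supply, −7.20 for mitotic kinases and checkpoint and −3.88 for mitotic chromosomes, kinetochore and spindle. Whether the groups differ was not tested.

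Of the licensing and helicase genes, Cdc6 was the only lower start and Gins2 the only higher one. Cdc6, the loader of the helicase, had folds of 10.0 and 10.1 in the controls against 9.64 and 5.23 in the knockdown, and percentiles of 53.8 and 55.3 against 40.01 and 15.0. Both knockdown values lay below the controls on either scale, that of knockdown 2 much further. Gins2 had percentiles of 12.2 and 13.0 against 22.1 and 18.3. In fold the groups of Gins2 overlap, since knockdown 2 had the lowest value of the 4, and its rank was not apart when all H3K27ac regions were ranked together. The 6 Mcm genes and Cdc45, which together with the GINS proteins form the replicative helicase, had overlapping groups in every case. For Mcm2 the percentiles were 66.9 and 59.9 against 62.6 and 71.2. For Mcm7 they were 77.0 and 82.6 against 79.2 and 76.6.

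DNA synthesis and nucleotide supply held 3 lower starts of 6. Rrm2 had percentiles of 97.5 and 99.3 in the controls against 96.2 and 96.7 in the knockdown, so it stayed at the top of each list and the differences were small. Pole, the catalytic subunit of the leading-strand polymerase, had 38.7 and 36.4 against 33.5 and 32.3. Pola1 had 15.6 and 33.5 against 12.0 and 12.2. The remaining 3, Pcna, Rfc3 and Rrm1, had overlapping groups. Pcna, the sliding clamp, had 56.9 and 66.2 against 81.1 and 65.3, and its start region was assigned by position to the neighbouring gene Cds2.

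Among mitotic genes, 3 starts were lower: Aurkb, Mki67 and Top2a. Mki67, which encodes the proliferation antigen Ki-67 that coats mitotic chromosomes, had folds of 10.2 and 11.2 in the controls against 9.82 and 6.56 in the knockdown, and percentiles of 55.4 and 64.5 against 41.5 and 30.9. Top2a, the topoisomerase that untangles sister chromatids, had folds of 8.37 and 9.17 against 7.28 and 6.50 and percentiles of 38.7 and 47.6 against 18.99 and 29.6. Aurkb, the kinase of the chromosomal passenger complex, had folds of 8.18 and 8.58 against 7.64 and 5.23 and percentiles of 36.7 and 42.1 against 22.1 and 15.0. In these 3 genes both knockdown folds were below both control folds, and Top2a was the one whose lower knockdown percentile came from knockdown 1. Aurka, which acts at centrosomes, had 69.3 and 71.6 against 74.0 and 45.1, with knockdown 1 above both controls and knockdown 2 below. Ndc80, of the outer kinetochore, had 81.9 and 85.2 against 77.3 and 83.5. Cenpa, the centromeric histone, had 29.5 and 69.8 against 23.7 and 49.4, with the controls further apart than the groups.

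**Figure D3:**
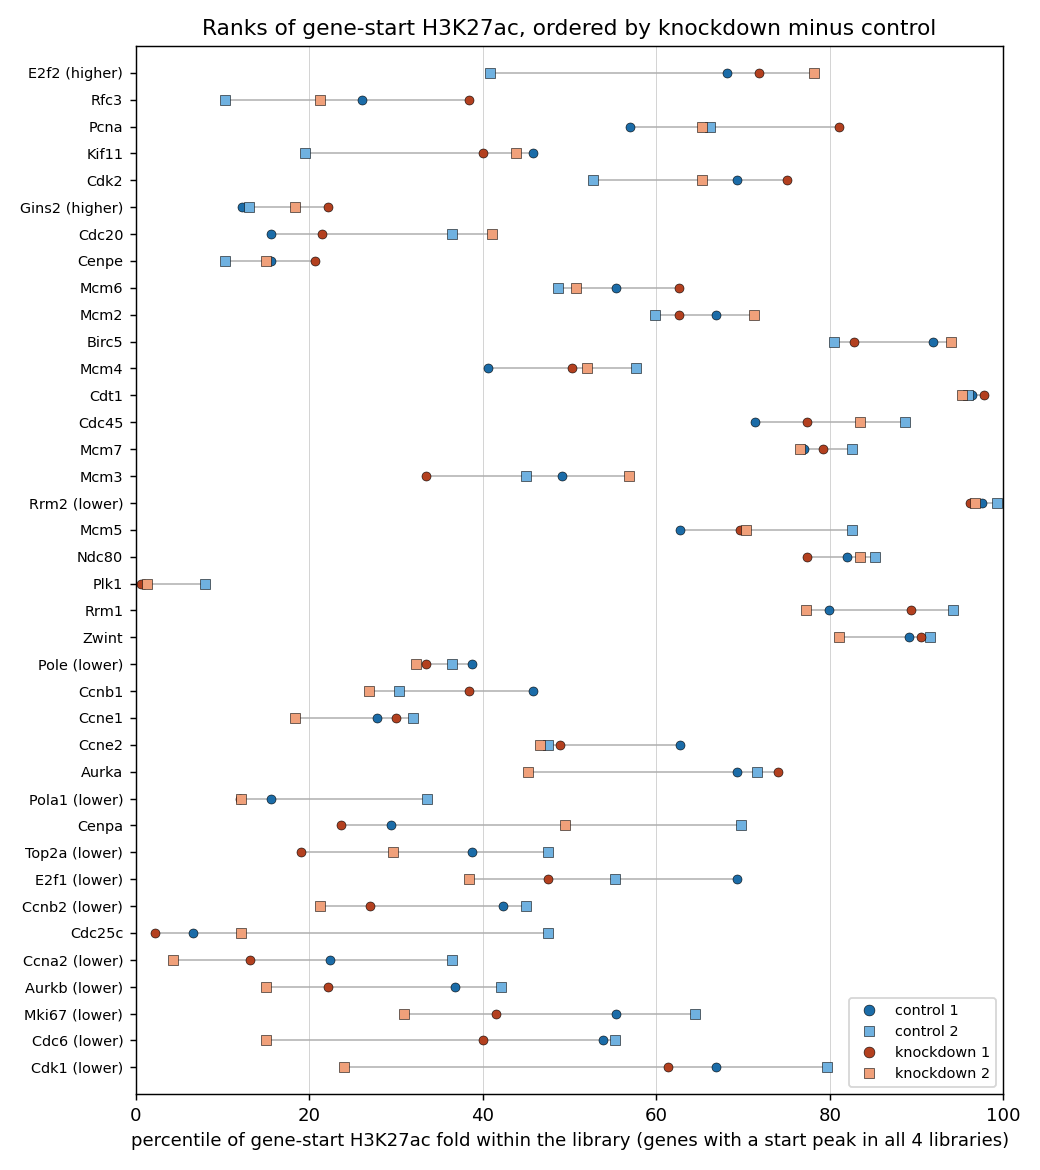
Percentile of gene-start H3K27ac fold within each library (0 to 100, among the 9563 genes with a start peak in all 4 libraries) for the 38 genes, ordered by knockdown minus control, with 1 point for each library and a line over their range. The 11 starts marked lower have both knockdown points to the left of both control points, with Cdk1 at the bottom, and the 2 marked higher, E2f2 and Gins2, have them to the right.

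Other genes of the same processes were counted the same way. Of 41 further replication genes, 36 had a start peak in all 4 libraries, of which 6 were lower and 1 higher. Of 46 further mitosis genes, 41 had one, of which 11 were lower and 3 higher. The median differences were −5.95 and −2.94 percentile points. Of the 11 acetylated muscle markers, 3 were lower and 1 higher, with a median difference of 0.77. These counts stand beside the 15% and 16% of all starts.

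In all, 105 H3K27ac regions were assigned to the genes, and few of them were found in a single group. They included gene starts, but not those of Mcm7 and Pcna, whose start regions were assigned by position to Ap4m1 and Cds2. Of the 105, 50 were present in all 4 libraries, 8 in 3, 16 in 2 and 31 in 1. The number of regions with a peak was 67 and 85 in the controls against 82 and 53 in the knockdown. The means were 76 ± 12.7 and 67.5 ± 20.5 (SD, n = 2), with a two-sided exact permutation p of 0.667. Of the 8 regions present in 3 libraries, 7 lacked a peak only in knockdown 2. Another 11 regions were shared by control 2 and knockdown 1 alone, the 2 H3K27ac lists with the most peaks. Of all 53495 assigned H3K27ac regions, 44.0% were present in all 4 libraries. A further 8.33% lacked only knockdown 2, and 5.75% were in control 2 and knockdown 1 alone.

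A peak in both controls and in neither knockdown library was found at 3 regions, and the reverse at 1. Over all assigned regions these shares were 1.45% and 0.765%. Mcm2, a subunit of the helicase, held 2 of the 3 control-only regions, both inside the gene. One (chr6:88886089-88886452), 12.3 kb downstream of its start, had folds of 3.15 and 5.03. The other (chr6:88886844-88887132), 11.6 kb downstream, had 2.47 and 3.18. They flanked and overlapped a MyoD region (chr6:88886309-88886867) that was present in all 4 libraries. The MyoD folds there were 12.5 and 10.7 in the controls against 7.47 and 9.80 in the knockdown. Both knockdown folds lay below the controls, but the percentiles of 78.2 and 69.8 against 36.0 and 70.6 overlap. When peaks within 1000 bp were merged the Mcm2 pair formed 1 control-only region, and when a −log10 q of at least 5 was asked for neither was control-only. The third lay 16.7 kb upstream of Zwint (chr10:72637258-72638168), with folds of 5.02 and 5.03, and was no longer control-only with the 1000 bp merge. The knockdown-only region lay 3.99 kb past the end of Cenpa (chr5:30678827-30679786), with folds of 8.19 and 5.005, and kept its pattern under both of these settings. It was no longer knockdown-only where peaks had to cover 50% of the region. From the further lists, Ccnf, cyclin F, held the only group-only H3K27ac region. It was control-only and inside the gene, with folds of 2.97 and 2.57.

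Among the 50 regions present in all 4 libraries, 14 ranked lower and 6 higher in both knockdown libraries. Over all 26113 such regions 15.9% ranked lower and 16.4% higher, 32.4% together. In this ranking the starts of Pole and Gins2 no longer stood apart, with percentiles of 60.7 and 50.2 against 54.7 and 48.4 for Pole and 33.8 and 23.8 against 43.8 and 31.7 for Gins2. The starts of Cdc25c and Plk1, in turn, ranked lower. Away from the starts the lower ones were at Ccne1 and Cdk2. The region 17.4 kb upstream of Ccne1 (chr7:38124935-38126619) had folds of 7.25 and 9.53 in the controls against 8.37 and 4.25 in the knockdown. The region inside Cdk2 (chr10:128699628-128701523) had folds of 9.11 and 8.95 against 7.82 and 3.92, with an unadjusted limma p of 0.0424. Of the 6 higher regions, 3 belonged to E2f2, and 1 each lay inside Bub1b, Cdc45 and Plk1. The region 6.90 kb downstream of the Plk1 start (chr7:122166339-122168081) had folds of 4.65 and 3.73 against 6.55 and 5.81, with an unadjusted limma p of 0.0452. Both knockdown folds at this Plk1 region were above both controls, whereas the region at its start ranked in the lower set. These 2 were the only regions of the list with an unadjusted p under 0.05, and their adjusted p was 0.994. When only regions at gene starts were ranked, 11 of 36 were lower and 2 higher.

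The third question was where MyoD was bound at these genes. MyoD regions were assigned to 15 of the 40 genes, and a region present in all 4 libraries to 11, or 27.5%: Birc5, Bub1b, Ccne1, Cdc45, Cdk2, Cdt1, E2f1, E2f2, Mcm2, Mki67 and Rrm2. This held for 22.5% of all genes and for 32.7% of those with start acetylation in all 4 libraries. Any MyoD region was assigned to 8662 of all 21631 genes and to 5056 of the 9563 with start acetylation. The 15 genes held 28 MyoD regions in total, 18 of them (64.3%) found in all 4 libraries. This share was 42.5% over all 19902 assigned MyoD regions and 45.0% over those of genes with start acetylation. Of the 18, 12 lay inside the gene body, 6 outside it and 6 at a gene start, counting the Cdt1 region, whose own peak within 1 kb was present in 3 libraries. An H3K27ac region of all 4 libraries overlapped 16 of the 18. The same held for 76.4% of all 9909 MyoD regions present in all 4. The 2 others were the intragenic Mcm2 region and a region 28.7 kb upstream of Mki67.

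MyoD lay at an annotated start in all 4 libraries at 5 of the 40 genes: Mcm2, E2f1, E2f2, Cdk2 and Birc5. This is 12.5%, beside 5.78% of all genes and 11.6% of genes with start acetylation. Near the starts of Cdt1 and Rrm2 there was a MyoD peak within 1 kb in 3 libraries. Of the 5 promoter windows under a constant MyoD region, 3 held an E-box. Of all windows 32.9% held one, and the share over all windows under such a MyoD region was not counted. The windows under MyoD at Mcm2 and E2f1 held no E-box and are not printed. Those 3 with an E-box are shown, with E-box, CHR, CCAAT and E2F matches in capitals. The E2f2 sequence is that before its second annotated start.

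Birc5 (chr11:117849077-117849236, plus strand): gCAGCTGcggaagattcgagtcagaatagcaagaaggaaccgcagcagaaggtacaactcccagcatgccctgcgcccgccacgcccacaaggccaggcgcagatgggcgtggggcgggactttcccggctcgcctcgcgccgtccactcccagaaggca
Cdk2 (chr10:128705052-128705211, minus strand): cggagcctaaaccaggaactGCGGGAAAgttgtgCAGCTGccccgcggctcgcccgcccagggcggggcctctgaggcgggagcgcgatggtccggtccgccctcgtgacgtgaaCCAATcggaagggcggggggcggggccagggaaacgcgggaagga
E2f2 second start (chr4:136180622-136180781, plus strand): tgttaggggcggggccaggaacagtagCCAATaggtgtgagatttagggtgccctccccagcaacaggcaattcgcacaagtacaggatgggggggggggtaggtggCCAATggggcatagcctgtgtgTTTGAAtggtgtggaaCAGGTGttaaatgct

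All MyoD folds at these starts were below 10. The region at the Birc5 start had MyoD folds of 6.61 and 7.29 in the controls against 9.58 and 5.09 in the knockdown. At the Cdk2 start they were 8.92 and 7.62 against 6.63 and 9.01. At both genes the knockdown libraries lie on either side of the controls. The Mcm2 start had 7.60 and 9.60 against 7.74 and 7.84. The E2f1 start had 6.94 and 4.64 against 7.74 and 5.49. Neither showed separate groups. The Cdk2 gene lies within the annotated interval of Pmel, so peaks there belong to both by position. A second region 3.91 kb downstream of the Cdk2 start had folds of 17.8 and 14.6 against 13.1 and 13.7, the knockdown values being below both controls while the percentiles overlap.

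E2f2, an activating E2F factor, had more MyoD regions than any other gene of the list. It held 4 regions in all 4 libraries and 1 each in 3 libraries and in 1. The strongest lay 1.95 kb downstream of the first start (chr4:136174226-136175079), with folds of 19.5 and 19.9 in the controls against 20.6 and 15.7 in the knockdown. The region 6.80 kb upstream (chr4:136164900-136165472) had 14.5 and 12.3 against 11.8 and 11.8. A wide region 2.39 kb before the second start (chr4:136176933-136178396) had 12.6 and 12.3 against 12.9 and 9.40. At the second start itself (chr4:136180532-136180941) the folds were 4.34 and 5.30 against 5.89 and 5.09. This weakest region ranked higher in both knockdown libraries, with percentiles of 2.71 and 9.54 against 17.2 and 10.4 and a limma adjusted p of 0.992. All 4 lay within H3K27ac regions of all 4 libraries, and the H3K27ac region over both starts (chr4:136171579-136181706) overlapped 4 MyoD regions. Its start fold was 11.9 and 8.42 against 14.0 and 11.9 and its percentile 68.2 and 40.8 against 71.9 and 78.1. The highest point of this wide peak lay 734 and 1637 bp downstream of the first start in the controls against 802 and 4444 bp in the knockdown. The H3K27ac region 5.59 kb upstream had folds of 10.3 and 11.2 against 15.8 and 11.9. The one 3.36 kb downstream of the second start had 4.31 and 6.06 against 8.37 and 5.74. E2f2 was thus the gene whose 3 constant H3K27ac regions all ranked higher in both knockdown libraries, with the lowest limma adjusted p at 0.994. The map of called peaks shows how the MyoD regions sit under the acetylated block.

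**Figure D4:**
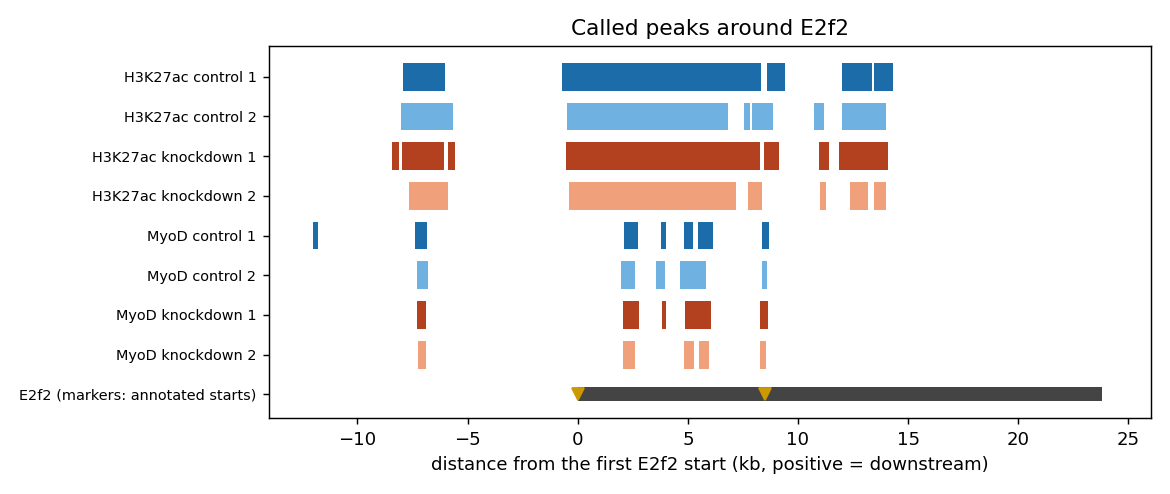
Peaks called in each of the 8 libraries around E2f2, drawn to scale by distance from its first annotated start (kb, positive downstream), with the gene body as a dark bar and markers at its 2 annotated starts, 8.51 kb apart. The H3K27ac block over the first start and 4 MyoD regions are present in all 4 libraries of their antibody, while a MyoD region inside the block lacks a peak in knockdown 2 and the farthest upstream MyoD peak is in control 1 alone.

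Among the MyoD regions of the list that lay outside the gene body, those of Rrm2 and Ccne1 were the strongest. The region 4.72 kb upstream of Rrm2 (chr12:24702925-24703533) had folds of 23.5 and 19.5 in the controls against 21.4 and 14.0 in the knockdown, with percentiles of 98.0 and 95.5 against 96.5 and 89.7. It lay under the same H3K27ac region of 9096 bp as the Rrm2 start. The region 17.9 kb upstream of Ccne1 (chr7:38125341-38126217) had MyoD folds of 20.8 and 15.9 against 15.8 and 11.5. Its percentiles of 96.4 and 90.3 against 89.0 and 81.5 put both knockdown values below both controls, and it overlapped the upstream H3K27ac region that also ranked lower. The nearer Ccne1 region, 4.28 kb upstream (chr7:38111774-38112999), had 16.9 and 11.9 against 15.8 and 12.9, and the groups overlap.

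At Cdt1, Cdc45, E2f1, Bub1b and Mki67 the constant MyoD regions were of middle or low rank. The region 301 bp upstream of Cdt1 (chr8:122566775-122567714) had folds of 6.55 and 6.62 in the controls against 4.42 and 5.09 in the knockdown, and percentiles of 22.3 and 24.8 against 3.43 and 10.4. It had the lowest unadjusted limma p of the list, 0.0653, with an adjusted p of 0.992. The Cdc45 region 16.1 kb downstream of its start (chr16:18795190-18795874) had 9.89 and 5.96 against 11.4 and 8.62, and percentiles of 59.9 and 16.6 against 72.1 and 60.2. The controls of Cdc45 differ more from each other than the groups do. The intragenic E2f1 region, 3.38 kb downstream, had 6.94 and 10.6 against 8.47 and 9.40. The Bub1b region, 22.4 kb downstream, had 11.2 and 9.27 against 11.8 and 8.23, and that of Mki67 had 4.63 and 6.62 against 6.26 and 6.66. In these 3 genes the groups overlap.

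**Figure D5:**
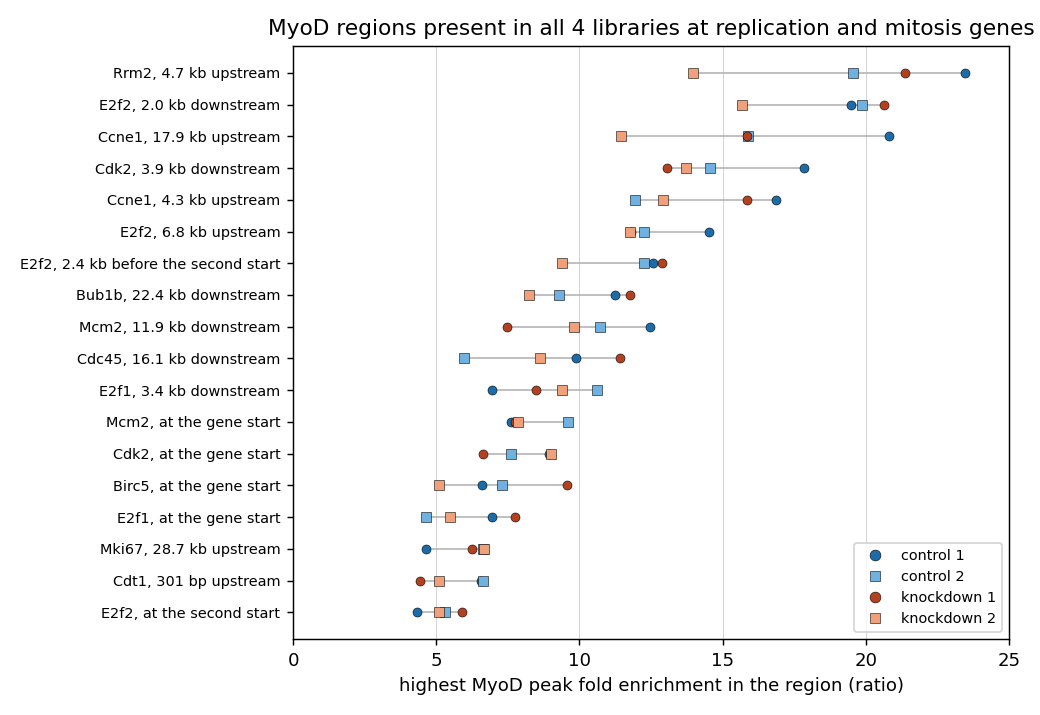
Highest MyoD peak fold enrichment (ratio, linear axis) in each of the 18 MyoD regions present in all 4 libraries, with 1 point for each library and a line over their range. The highest values are at Rrm2, Ccne1 and E2f2, the regions at gene starts lie below 10, and control and knockdown points are interleaved in most regions.

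MyoD peaks at these genes showed no group-only region. Of the 28 regions 0 were control-only and 0 knockdown-only, beside 4.87% and 0.688% of all 19902 assigned MyoD regions. The number with a peak was 22 and 25 in the controls against 22 and 19 in the knockdown, or 23.5 ± 2.12 and 20.5 ± 2.12 (SD, n = 2), with a two-sided exact permutation p of 0.667. Of the 18 regions in all 4 libraries, 2 ranked lower (Cdt1 and the distal Ccne1 region) and 2 higher (Cdc45 and the second E2f2 start), or 4 apart in either direction. Over all 9909 such regions 15.9% were lower and 16.4% higher, 32.3% together. With limma, 0 of the 9909 passed an adjusted p of 0.05, and 438 (4.42%) had an unadjusted p under 0.05, of which 0 belonged to the 18. Among the further lists, control-only MyoD regions were found at Orc3 (4.30 and 4.64), of the origin recognition complex, and near Prim2 (4.63 and 4.64), of DNA primase. They were also found in Cdc25b (5.29 and 3.64), a phosphatase that activates Cdk1, and in Nusap1 (5.62 and 4.97), a spindle protein.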

How the data were processed

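H3K27ac and MyoD peaks were called for each library separately. The labels' protocols name tagmentation of antibody-bound chromatin, and MACS2 2.1.1, Bowtie2 2.3.2, bedtools 2.26.0, SAMtools 1.3 and Picard 2.9.2 appear, with mm10 and without roles, in the submitters' processing notes. Each deposited peak carried the authors' fold enrichment (a ratio), −log10 p and −log10 q, and a score. The lowest −log10 q in any list was 1.30, so weaker enrichment is unseen, and read depth is unknown. Peaks on chromosomes 1 to 19 and X were merged per antibody where they overlapped or touched (gap 0 bp), and 1 shared base counted as presence. A region was given to the gene body it overlapped, otherwise to the nearest within 50 kb (RefSeq, GRCm38.p6). A gene start was the annotated start of the RefSeq promoter table, with a window of 1 kb. Folds were tested only as ranks within a library over the features present in all 4. Folds set side by side in the text are the deposited values, not scaled between libraries, and are a description.

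Ranks of regions were tested with limma 3.58.1 in R 4.3.3 on normal scores with Benjamini-Hochberg adjustment over all regions, and values per library by the exact permutation test. The limma step was tested on simulated ranks. Other values came from Python 3.11.15 with pandas 2.3.3, numpy 2.4.6 and scipy 1.17.1. Values per library are given for genes with a group-only region, MyoD in all 4 libraries, a missing start peak, one of the 5 highest or 5 lowest mean start percentiles, or ranks apart between the groups; others named beside them were chosen after their values were seen. The genes, lists and motifs were chosen with earlier results of these data known. Same-numbered replicates are not said to share a source. The result of 1 further marker list is not reported here.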

Additional observations from a re-analysis of the deposited data

How the results depend on the processing

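With 2 libraries a group and peak lists without read counts, a call made or missed near the peak threshold cannot be told apart from a difference in enrichment, and no exact permutation test here could pass 0.05. Of 117 alternative values, 82 kept direction and call, 31 were counts that moved in size, 3 reversed direction and 1 became stronger. Some of the 82 could not change, such as start values with peaks merged within 1000 bp. When ranked among starts, all 11 lower gene starts stayed lower with equal peak numbers. Only Ccna2 was lost with a −log10 q of at least 5 and with a 250 bp window. Merging peaks within 1000 bp could not change the list, since start values were read from unmerged peaks. Leaving out a library kept all 11, which the definition makes likely. Pole was not lower when all H3K27ac regions were ranked together. Leaving out each library moved the number of lower starts to between 14 and 22 and of higher starts to between 6 and 9, since 2 libraries against 1 separate more often. The difference in median start percentile then ran from −10.1 to −6.22.

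The difference in H3K27ac regions with a peak (−8.5) turned to 1.5 without control 2 and 5.5 without knockdown 2, and ran from −25 to 5.5 over the libraries left out. For MyoD the difference (−3) was −6.5 with 50% cover, −1 with equal peak numbers, −5.5 without knockdown 1 and −1.5 without control 2 or knockdown 2. Control-only minus knockdown-only H3K27ac regions numbered 2. The value was 0 with peaks merged within 1000 bp, 1 with a −log10 q of at least 5, 4 where peaks had to cover 50% of the region and 1 with genes within 10 kb. It ran from −9 to 17 with a library left out, and −9 came without knockdown 2. For MyoD it was 0, 2 with a −log10 q of at least 5, 2 with 50% cover and −1 to 4 with a library left out. H3K27ac regions ranked apart numbered 20, but 13 of 36 among gene-start regions and 32 to 40 with a library left out. MyoD regions ranked apart numbered 4. With a −log10 q of at least 5, with equal peak numbers and among gene-start regions they numbered 2, and with a library left out 8 to 14. The cause was not tested, apart from the smaller sets of regions and libraries that these settings use.

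The limma count of called MyoD regions, 0, became 12 without knockdown 2 (0 to 12 over the libraries left out, the lone library being taken to vary like the others), and 0 of the 12 belonged to these genes. With the replicate block, limma called 0 regions of either antibody, with 1493 H3K27ac and 544 MyoD regions at an unadjusted p under 0.05. The deviations of same-numbered libraries correlated at 0.106 for H3K27ac and 0.0943 for MyoD over 2 pairs, too few to show whether the numbers pair the libraries.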
